A study of Mus musculus with 36 samples.

Results

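The genes described are those of 8 factors shared by the pluripotent states of the early mouse embryo: Pou5f1, which encodes OCT4, Sox2, Sall1, Sall2, Sall3, Sall4, Utf1 and Zfp281. They were chosen by name, as 8 of the 55401 genes in the count tables, and all 8 were found by symbol in the GRCm38 annotation. RNA was measured in 36 libraries of mouse embryonic stem cells (ESCs) and of epiblast-like cells (EpiLCs) made from them, with 3 libraries in each of 12 groups, all given as strain C57BL/6. ESCs were grown with serum, leukaemia inhibitory factor and the pair of inhibitors called 2i, a GSK inhibitor at 3 µM and a MEK inhibitor at 1 µM. EpiLCs were collected after 2 days on fibronectin with activin A at 20 ng/mL, bFGF at 12 ng/mL and serum replacement. J2WT is the WT line matched to J2KO, which lacks JARID2, a subunit that marks PRC2.2. PclWT is the WT line matched to TKO, which lacks MTF2, PHF1 and PHF19, the Polycomb-like proteins that mark PRC2.1, and to QKO, which lacks these and JARID2. These 5 lines were measured at both stages, whereas Pcgf2/4 KO cells, which lack the PRC1 subunits PCGF2 and PCGF4, and their WT control were measured as EpiLCs only. The labels do not name the line of that WT control and do not state whether replicates were grown separately, so the p-values reflect the spread among libraries alone, which may be technical.

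OCT4 and SOX2 bind DNA side by side, as a POU factor and an HMG-box factor, at many of the enhancers that keep pluripotency genes active, and OCT4 is required in both the naive cells that ESCs represent and the formative cells that EpiLCs represent. SALL4 and its relatives SALL1, SALL2 and SALL3 are zinc finger proteins that recruit the NuRD deacetylase complex through a short motif at their N terminus. UTF1 is a chromatin-bound factor whose gene carries an enhancer bound by OCT4 and SOX2, and ZFP281 is a zinc finger protein known for its part in the passage from the naive to the primed state. Polycomb repressive complexes keep genes of later lineages silent at CpG-rich promoters, and Polycomb-like proteins bind unmethylated CpG-rich DNA.

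The genes differ in their structure and in the bases before their start. In GENCODE annotation of GRCm38, Pou5f1 lies at chr17:35506018-35510772 on the forward strand, Sox2 at chr3:34650405-34652461 (forward, 1 exon block), Zfp281 at chr1:136624901-136630053 (forward), Utf1 at chr7:139943789-139945112 (forward), Sall1 at chr8:89027235-89044162 (reverse), Sall2 at chr14:52311172-52328762 (reverse) and Sall4 at chr2:168748332-168767943 (reverse). Of the exon bases of Pou5f1, 14.1% are shared with the antisense gene Gm19553, and of those of Sall4, 9.5% are shared with the antisense gene Gm14261. Reads there were counted for neither gene in the column used, so that the levels of these 2 genes per length are understated, and the kit does not mark strand. The RefSeq promoter table of build GRCm38.p6 held entries for 6 of the 8 genes that could be used, not for Sall3 and Sall4, and its starts can differ from those of GENCODE, as for Sox2. The 250 bases before the first listed start are printed for 4 genes that the results turn on, 5′ to 3′ on the strand of the gene, with each CpG in capitals because CpG density is the feature that Polycomb-like proteins read. They are chr17:35505782-35506031 for Pou5f1 and chr3:34649745-34649994 for Sox2, which were lower in EpiLCs, and chr7:139943606-139943855 for Utf1 and chr8:89044163-89044412 for Sall1, which were higher there.
Pou5f1: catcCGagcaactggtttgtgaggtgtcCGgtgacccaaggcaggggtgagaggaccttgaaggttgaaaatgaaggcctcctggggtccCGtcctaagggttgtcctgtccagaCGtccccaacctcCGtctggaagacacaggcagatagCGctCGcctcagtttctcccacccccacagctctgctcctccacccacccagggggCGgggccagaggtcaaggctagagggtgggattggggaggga
Sox2: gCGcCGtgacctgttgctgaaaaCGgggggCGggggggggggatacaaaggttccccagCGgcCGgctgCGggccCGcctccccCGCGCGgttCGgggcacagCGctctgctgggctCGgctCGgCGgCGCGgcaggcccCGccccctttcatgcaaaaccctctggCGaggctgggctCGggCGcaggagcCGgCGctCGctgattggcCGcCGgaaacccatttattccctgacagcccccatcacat
Utf1: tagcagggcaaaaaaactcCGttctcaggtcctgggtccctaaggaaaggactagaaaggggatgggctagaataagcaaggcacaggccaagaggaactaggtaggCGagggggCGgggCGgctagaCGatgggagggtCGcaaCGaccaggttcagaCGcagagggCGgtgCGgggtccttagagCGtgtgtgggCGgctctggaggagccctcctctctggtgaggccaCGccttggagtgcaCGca
Sall1: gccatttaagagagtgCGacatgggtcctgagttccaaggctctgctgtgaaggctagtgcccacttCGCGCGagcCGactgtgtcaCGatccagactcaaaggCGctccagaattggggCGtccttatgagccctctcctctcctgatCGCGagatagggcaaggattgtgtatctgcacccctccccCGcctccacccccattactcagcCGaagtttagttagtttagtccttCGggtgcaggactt
The Pou5f1 window held 8 CpGs, the Sox2 window 27, the Utf1 window 14 and the Sall1 window 13, beside a median of 6 over all 32851 entries. Zfp281, not printed, held 19. The 2 listed starts of Sall2 had 0 and 6 CpGs, and the other 2 starts of Sall1 had 25 and 30. The letters ATGCAAA, most of the octamer read by POU factors, were searched on both strands of these windows and matched 1 time, in Sox2, beginning 99 bases before the start, and 4.12% of all entries hold a match. The letters ACAAAG, a core read by SOX factors, also matched only in Sox2, beginning 206 bases before the start, with a match in 16.5% of all entries. The matches did not overlap, and they describe letters in these windows, not binding.

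Libraries held 6784578 to 18026492 counts in genes. The J2WT and J2KO libraries were deepest (15924615 to 18026492), the PclWT, TKO and QKO libraries shallowest (6784578 to 11253158), and those of the Pcgf2/4 KO set lay between (10403211 to 11146921), so a difference between line families cannot be told apart from a difference between library sets. Levels are given as CPM, a gene's counts relative to its library's total scaled by TMM factors, and RPKM divides these by the exon length in kilobases. PclWT EpiLC replicate 1 stood apart: 1501 and 1692 of 12421 genes differed by over 2-fold from replicates 2 and 3, which differed from each other in 82, whereas no other pair of libraries in a group differed in more than 184. Results that use PclWT EpiLCs are therefore given with and without it. Mtf2 fell from 419 CPM in PclWT ESCs to 43.9 in TKO and 37.9 in QKO, and Phf1 stood at 8.06, 0.595 and 0.59. Phf19 (1.67, 1.25 and 0.48 CPM), Jarid2 in J2KO (411 CPM beside 457 in J2WT ESCs), and Pcgf2 and Bmi1 in Pcgf2/4 KO EpiLCs (64.6 and 23 CPM beside 59 and 21.9) kept reads over the whole gene, which does not check a deletion of part of it. Jarid2 in QKO likewise kept reads, at 395 CPM beside 453 in TKO in ESCs and 492 beside 541 in EpiLCs. The stage labels held against markers: in J2WT EpiLCs 9 of 10 naive genes fell, with Klf4 and Tbx3 changed most, and 11 of 11 formative genes rose, with Fgf5 and Pou3f1 changed most. In PclWT, 10 of 10 naive genes fell and 10 of 10 formative genes rose, but the formative genes rose less. Their median log2 fold change was 1.6 in PclWT and 4.47 in J2WT. The formative list summed to 1300 to 1470 CPM in PclWT EpiLCs and 4520 to 4610 in J2WT EpiLCs.

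Per length, Pou5f1, Sox2 and Utf1 were the most abundant of the 8 mRNAs. In J2WT ESCs, Pou5f1 stood at 371 ± 19 RPKM (SD, n = 3), Sox2 at 287 ± 10.8, Utf1 at 78.5 ± 2.13, Sall4 at 56.1 ± 1.49, Zfp281 at 34.2 ± 0.799, Sall1 at 20.4 ± 1.08, Sall3 at 7.99 ± 0.556 and Sall2 at 0.407 ± 0.0441. In J2WT EpiLCs the order by RPKM was Utf1 (564 ± 15.8), Pou5f1 (329 ± 4.14), Sox2 (176 ± 2.85), Sall1 (66.7 ± 0.81), Zfp281 (50.6 ± 1.73), Sall4 (29.7 ± 1.22), Sall2 (6.56 ± 0.271) and Sall3 (0.37 ± 0.0304). With unshared exon bases only, Pou5f1 came to 432 RPKM in J2WT ESCs and Sall4 to 62, with the same order of genes there. For Pou5f1 the strand columns summed to 1.36 to 1.41 times the column used over all libraries, and for Sall4 to 1 to 1.05 times. The value of 432 RPKM may therefore still understate Pou5f1. Pou5f1 ranked between the 99.2 and 99.7 percentile of protein-coding genes in every group, Sox2 between 98.3 and 99.7, and Utf1 between 97.4 and 99.9. Sall2 (46.7 to 87) and Sall3 (34.9 to 87.8) ranged over much of the distribution. Across the 12 groups the mean of Zfp281 varied 1.85-fold from lowest to highest, that of Pou5f1 2.22-fold, Sox2 4.43-fold, Sall4 4.64-fold, Utf1 8.02-fold, Sall1 11.3-fold, Sall2 48.3-fold and Sall3 290-fold, the last down to a mean of 0.545 CPM in WT EpiLCs of the Pcgf2/4 KO set, where each library had few counts.

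**Figure D1:**
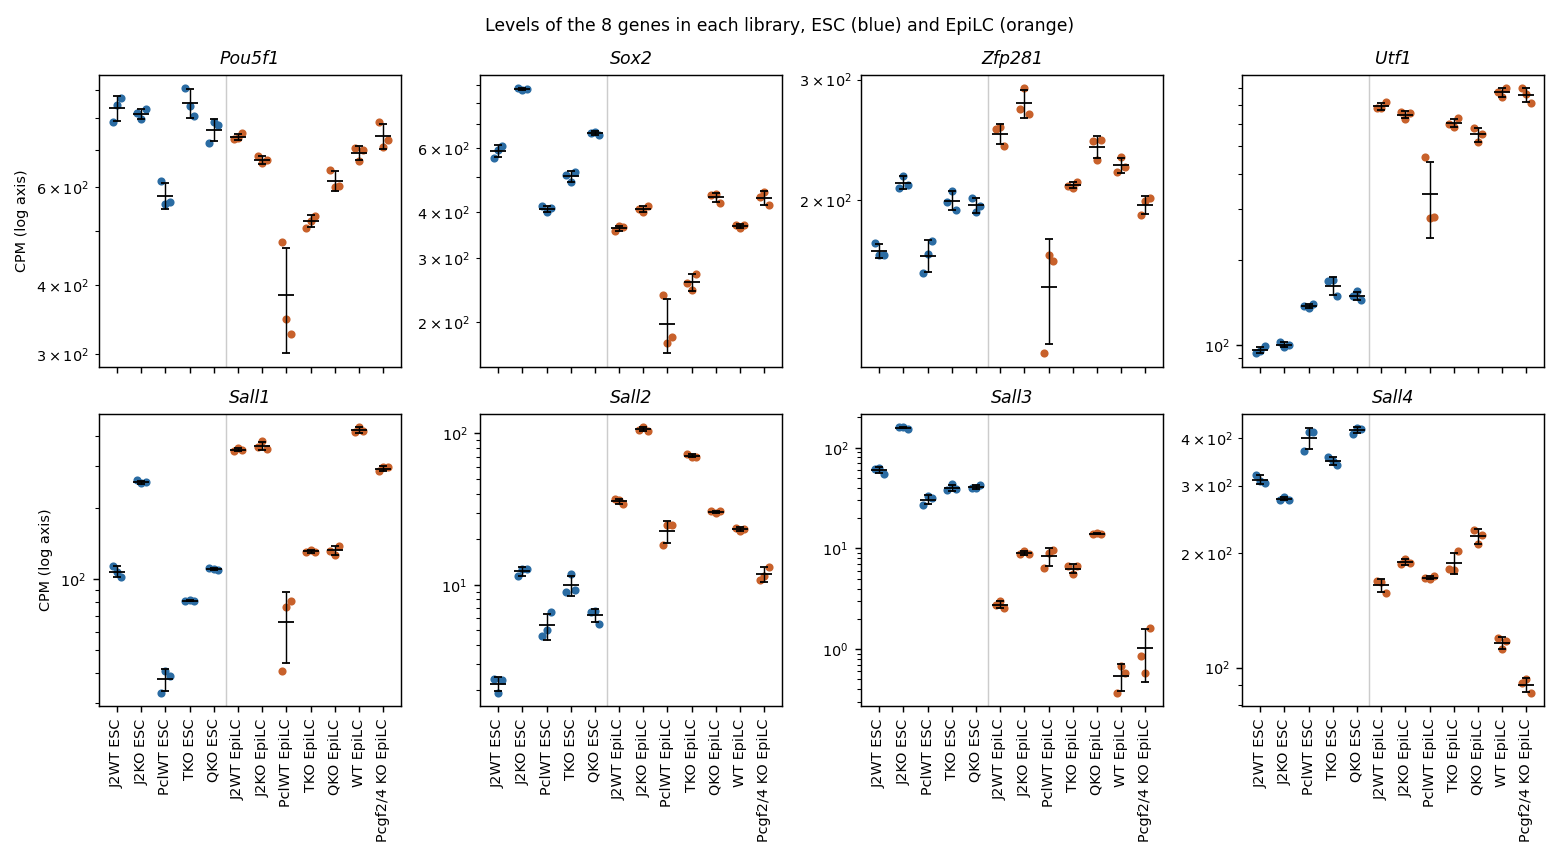
Level of each gene (CPM, log axis) in each of the 36 libraries by group, with ESCs in blue and EpiLCs in orange. Points are libraries and black bars the mean ± SD of 3, and Utf1 stood at 96.3 to 162 CPM over the ESC groups and 339.9 to 773 over the EpiLC groups.

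The first question was how the 8 genes changed from ESC to EpiLC. In J2WT all 8 passed the test (adjusted p under 0.05): Sall1, Sall2, Utf1 and Zfp281 rose, and Pou5f1, Sox2, Sall3 and Sall4 fell. The share of all genes tested that passed was 40.0% higher and 42.3% lower, so passing is common in this comparison, and 4 of the 8 exceeded 2-fold, beside 30.2% of all genes. In bulk RNA a lower level in every cell and fewer cells with the mRNA cannot be told apart. Pou5f1 stood at 788, 844 and 871 CPM in the 3 J2WT ESC libraries and 733, 738 and 751 in the 3 EpiLC libraries, which did not overlap, a log2 fold change of -0.16 ± 0.037 (SE). Sox2 stood at 567, 593 and 611 CPM in ESCs and 355, 366 and 364 in EpiLCs (-0.70 ± 0.035, adjusted p = 3.44e-15). The fall of the OCT4 mRNA was 1.12-fold and that of Sox2 1.62-fold. Here and for every later comparison of groups, a value in brackets with ± is a log2 fold change with its SE. Utf1 went from 94, 95.9 and 99.1 CPM to 680, 681 and 714, 7.23-fold (2.85 ± 0.038, adjusted p = 7.04e-27). Zfp281 went from 173, 166 and 167 CPM to 254, 256 and 240.1, 1.49-fold.

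The 4 Sall genes moved in opposite directions. Sall1 rose from 113, 107 and 102 CPM in J2WT ESCs to 348, 356 and 349.7 in EpiLCs (1.72 ± 0.039 on the log2 scale), and Sall2 from 2.37, 1.94 and 2.33 to 36.7, 36.3 and 34 (4.02 ± 0.10), 16.2-fold. Sall3 fell from 61.5, 62.8 and 55 to 2.74, 3.01 and 2.55 CPM, 21.4-fold lower (-4.42 ± 0.093, adjusted p = 5.5e-23). Sall4, the member of the family best known in ESCs, fell from 319.8, 308 and 304 to 169, 167 and 157 CPM, 1.88-fold lower. In none of the 4 did the libraries of the 2 stages overlap. The summed level of the 8 fibroblast or feeder markers was 3.55 to 4.51 CPM in J2WT ESCs and 23.9 to 26 in EpiLCs (3 of 4 tested genes higher, 1 lower), with Twist2 at 0 in the ESCs, and that of the 8 primitive endoderm markers 39.2 to 43 and 58.1 to 61 (4 of 4 higher). The trophoblast list summed to 90.8 to 92.4 and 31.8 to 32.1 CPM (2 of 6 tested genes higher and 4 lower) in ESCs and EpiLCs. The part of these lists in the changes was not tested.

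In PclWT, 6 of the 8 genes passed, 2 higher and 4 lower, beside 15.4% and 14.7% of all genes, and 5 exceeded 2-fold, beside 15.2%. Pou5f1 stood at 615, 559 and 565 CPM in ESCs and 478, 347 and 326 in EpiLCs, with replicate 1 highest in the EpiLC group (-0.62 ± 0.17, adjusted p = 0.0304). Sox2 stood at 416, 402 and 411 and 236, 175 and 181, again with replicate 1 highest and with no overlap of stages (-1.08 ± 0.14). Utf1 rose from 138, 136 and 139.8 to 457, 280.4 and 283 CPM (1.28 ± 0.21), and the range in EpiLCs was set by replicate 1. Sall2 rose (2.05 ± 0.20), and Sall3 (-1.88 ± 0.18) and Sall4 (-1.24 ± 0.10) fell. Sall1 stood at 33.2, 41 and 39.1 CPM in ESCs and 40.8, 76.5 and 80.8 in EpiLCs, where replicate 1 lay within the ESC range, and it missed the threshold (0.78 ± 0.26, adjusted p = 0.0623). Zfp281 (-0.18 ± 0.15, adjusted p = 0.431) also missed it. Without EpiLC replicate 1, 7 of 8 passed, beside 65.1% of all genes, and Sall1 was higher in EpiLCs (1.06 ± 0.081, adjusted p = 1.38e-08), while Zfp281 was not past the threshold (-0.012 ± 0.060, adjusted p = 0.87). The block by replicate number also brought Sall1 past it (0.73, adjusted p = 0.0243), as did DESeq2 (0.0201), no count filter (0.0235) and the fit of all libraries of the line family (0.000873). The call of Pou5f1 was lost without PclWT ESC replicate 1 (adjusted p = 0.114), 2 (0.091) or 3 (0.0915) and without EpiLC replicate 2 (0.102) or 3 (0.0855). Leaving out 1 library at a time gave 5 to 7 genes. The primitive endoderm list summed to 127 to 135 and 38.9 to 69.5 CPM (0 of 3 tested genes higher and 1 lower) in PclWT ESCs and EpiLCs, and its part was not tested.

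The 3 mutants with both stages gave the same direction of change as J2WT for each gene that passed. In J2KO 4 genes rose and 4 fell (all genes, 40.3% and 42.8%), with 4 past 2-fold (all genes, 27.4%). In TKO 3 rose and 4 fell (36.2% and 37.7%), with 3 past 2-fold (22.5%), and Zfp281 was not past the threshold (0.095 ± 0.043, adjusted p = 0.0581). In QKO 4 rose and 4 fell (36.2% and 37.1%), with 3 past 2-fold (19.1%). Utf1 rose 6.46-fold in J2KO, 3.77-fold in TKO and 3.68-fold in QKO. Sall2 rose 8.76-fold, 7.26-fold and 4.82-fold, and Sall3 fell 17.3-fold, 6.24-fold and 2.91-fold. Pou5f1 was lower in EpiLCs by 1.2-fold in J2KO, 1.61-fold in TKO and 1.24-fold in QKO, Sox2 by 2.12-fold, 1.93-fold and 1.5-fold, and Sall4 by 1.46-fold, 1.83-fold and 1.9-fold. Sall1 rose least in QKO, from 111, 111 and 109 CPM to 132, 126 and 138, 1.19-fold (0.26 ± 0.043, adjusted p = 8.55e-06), and with all libraries of the line family in the fit this call was lost (0.23, adjusted p = 0.238).

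**Figure D2:**
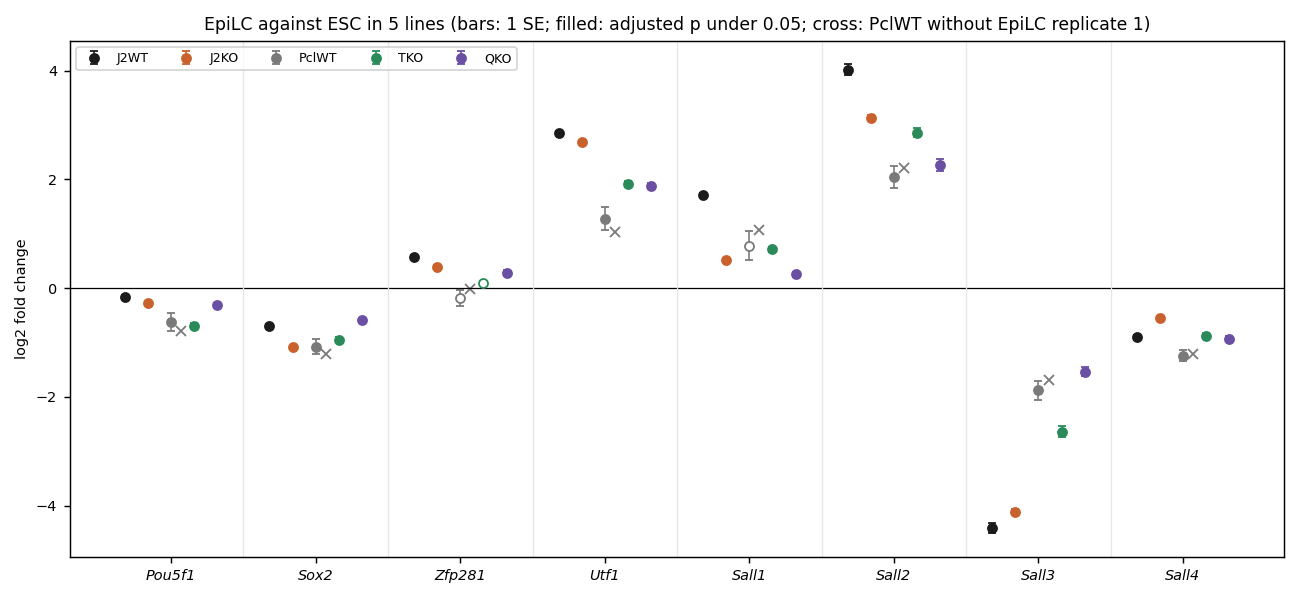
Log2 fold change of each gene from ESC to EpiLC (vertical axis) in 5 lines, with bars of 1 SE, filled points for adjusted p under 0.05 and crosses for PclWT without EpiLC replicate 1. In J2WT Sall2 stood at 4.02 and Sall3 at -4.42, the farthest of the 8 in either direction, while Pou5f1 lay at -0.16.

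Whether the change from ESC to EpiLC differed between lines was tested as an interaction. Between J2KO and J2WT it differed for 7 of 8 genes (all genes, 54.1%). Sall1 differed most, -1.21 ± 0.049 on the log2 scale (adjusted p = 7.64e-19), as its rise in J2KO (0.52 ± 0.030) was smaller than in J2WT (1.72 ± 0.039). Sall3 was the gene that did not pass (0.29 ± 0.14, adjusted p = 0.0818). Between the WT lines, PclWT minus J2WT, 6 of 8 differed (all genes, 42.9%), with Sall2 (-1.95 ± 0.23) and Utf1 (-1.57 ± 0.21) rising less in PclWT and Sall3 falling less (2.55 ± 0.21). Without PclWT EpiLC replicate 1 all 8 differed, beside 65.1% of all genes. Between TKO and PclWT, 2 of 8 differed (all genes, 15.3%), and between QKO and PclWT 1 of 8 (all genes, 16.2%). Without PclWT EpiLC replicate 1 these became 6 of 8 in each (all genes, 35.5% and 37.0%), so this library decides them. Leaving out any other library gave 0 to 2 in TKO and 0 or 1 in QKO. In TKO, where 0 passed, 1401 of 12751 to 1432 of 12781 of all genes did. Without PclWT EpiLC replicate 1, Utf1 rose more in both mutants (0.87 ± 0.082 in TKO and 0.82 ± 0.075 in QKO) and Sall1 rose less (-0.36 ± 0.094 and -0.84 ± 0.085). The TKO and QKO contrasts share the PclWT libraries.

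The next question was how these genes differed at each stage between J2KO, which lacks the PRC2.2 subunit JARID2, and J2WT. By its label each mutant was a single line. Here and below, a difference between genotypes therefore cannot be told apart from another difference between the lines. In ESCs 5 of 8 were higher in J2KO and 1 lower, beside 36.7% and 34.1% of all genes. Sall1, Sall2 and Sall3 changed most. Sall1 stood at 113, 107 and 102 CPM in J2WT and 260.4, 253 and 255 in J2KO (1.26 ± 0.038, adjusted p = 1.63e-16). Sall2, at 2.37, 1.94 and 2.33 CPM (30 to 38 counts) in J2WT ESCs, stood at 11.3, 12.8 and 12.7 in J2KO (2.48 ± 0.13). Sall3 went from 61.5, 62.8 and 55 to 159.7, 159 and 155 CPM (1.41 ± 0.045), its highest level in any group. No library of one genotype lay within the range of the other for these 3 genes. Sox2 stood at 881, 868 and 875 CPM in J2KO ESCs, 1.49-fold above J2WT, and Zfp281 1.27-fold above it. Sall4 was 1.11-fold lower. Pou5f1 (-0.025 ± 0.036, adjusted p = 0.544) and Utf1 (0.072 ± 0.039, adjusted p = 0.107) did not pass and overlapped between genotypes, but Pou5f1 passed without J2WT ESC replicate 1 (-0.068, adjusted p = 0.0212) and Utf1 without J2WT ESC replicate 3 (0.092, adjusted p = 0.0448).

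In EpiLCs all 8 genes differed between J2KO and J2WT, 6 higher and 2 lower, beside 34.7% and 30.5% of all genes, and most by little. Sall2 stood at 36.7, 36.3 and 34 CPM in J2WT and 106, 110.3 and 104 in J2KO, 3.04-fold (1.60 ± 0.044), and Sall3 at 2.74, 3.01 and 2.55 and 8.9, 9.53 and 8.73, 3.31-fold (1.73 ± 0.13). Sall1 stood at 348, 356 and 349.7 and 361, 381 and 352, with overlapping libraries, and its call (0.075 ± 0.030, adjusted p = 0.0302) was lost with DESeq2 (adjusted p = 0.12), RLE normalization (0.0862) and the line family fit (0.176), and without J2WT EpiLC replicate 1 (0.102) or 3 (0.0741) or J2KO EpiLC replicate 1 (0.107) or 2 (0.29). Sox2 was 1.15-fold higher, Sall4 1.17-fold higher and Zfp281 1.12-fold higher. Pou5f1 was 1.09-fold lower and Utf1 1.06-fold lower, the latter not past the threshold without J2WT EpiLC replicate 3 (-0.055, adjusted p = 0.132). The neuroectoderm list summed to 44.1 to 45.1 CPM in J2WT ESCs and 71.5 to 74.3 in J2KO ESCs (3 of 3 tested genes higher, Hes5 and Neurog1 at 0 in J2WT), and to 57.3 to 59.8 and 35.9 to 36.5 in EpiLCs (1 of 4 higher and 2 lower). The trophoblast list summed to 90.8 to 92.4 and 26.7 to 28.7 CPM in ESCs (4 of 5 tested genes lower). In J2WT and J2KO EpiLCs the primitive endoderm list summed to 58.1 to 61 and 34.1 to 37.2 CPM (1 of 5 tested genes higher and 4 lower) and the naive list to 257 to 263 and 350 to 371 CPM (7 of 10 tested genes higher and 1 lower). The part of these lists was not tested.

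Loss of the Polycomb-like proteins was examined in TKO and, together with loss of JARID2, in QKO. Both were compared with the same PclWT libraries. In ESCs 7 of 8 genes were higher and 1 lower in TKO, beside 33.9% and 32.9% of all genes, and 6 were higher and 0 lower in QKO, beside 36.5% and 33.4%. Sall1 stood at 33.2, 41 and 39.1 CPM in PclWT, 80.6, 81.2 and 80.5 in TKO and 111, 111 and 109 in QKO, 2.11-fold and 2.95-fold above PclWT (1.07 ± 0.073, adjusted p = 2.49e-10 in TKO and 1.56 ± 0.067, adjusted p = 5.61e-12 in QKO). Pou5f1 stood at 615, 559 and 565 CPM in PclWT, 907, 843 and 807 in TKO and 722, 787 and 776 in QKO, 1.44-fold and 1.32-fold higher, with no overlap. Sox2 was 1.21-fold higher in TKO and 1.62-fold in QKO, Sall3 1.29-fold and 1.35-fold, and Zfp281 1.18-fold and 1.19-fold. Sall2 was higher in TKO (0.87 ± 0.17, adjusted p = 0.000138) and did not pass in QKO (0.23 ± 0.17, adjusted p = 0.234). Sall4 was 1.17-fold lower in TKO and did not pass in QKO (0.076 ± 0.049, adjusted p = 0.181). The small difference of Utf1 in QKO (0.12 ± 0.048, adjusted p = 0.0358) missed the threshold with DESeq2 (0.111), with no count filter (0.0878), with the replicate block (0.0682) and in the line family fit (0.454), and without PclWT ESC replicate 2 (0.108) or 3 (0.0558) or QKO ESC replicate 1 (0.0987) or 2 (0.124). That in TKO (0.21 ± 0.058, adjusted p = 0.00403) missed it in the line family fit (0.196).

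In EpiLCs 4 of 8 genes were higher in TKO and 0 lower, beside 15.9% and 17.6% of all genes, and 7 were higher in QKO and 0 lower, beside 16.5% and 16.2%. These counts rest on PclWT EpiLC replicate 1: without it 7 of 8 genes passed in TKO, beside 66.4% of all genes, and 8 of 8 in QKO, beside 66.4%. With it present, leaving out PclWT EpiLC replicate 2 or 3 gave 2 genes in TKO, beside 3211 of 12845 and 3686 of 12834 of all genes. In QKO it gave 4, beside 3152 of 12867 and 3485 of 12863. Leaving out any 1 mutant library gave 1 gene in either. Of all genes, 2069 of 12765 to 2389 of 12982 then passed in TKO and 2212 of 12812 to 2266 of 12920 in QKO. Sall2 stood at 18.3, 25 and 24.7 CPM in PclWT and 73.2, 70.4 and 69.9 in TKO, 3.06-fold higher with the library and 2.84-fold without it. In QKO it stood at 30.7, 29.6 and 30.5 CPM and did not pass with the library (0.40 ± 0.15, adjusted p = 0.0753; without the library 0.26 ± 0.083, adjusted p = 0.00885). Utf1 stood at 457, 280.4 and 283 CPM in PclWT, 600, 584 and 627 in TKO and 580.1, 519 and 551 in QKO, so all 6 mutant libraries lay above all 3 of PclWT. Its log2 fold change was 0.79 ± 0.21 in TKO and 0.68 ± 0.21 in QKO, and 1.08 ± 0.041 and 0.94 ± 0.051 without the library. Sox2 was higher in QKO (1.14 ± 0.15, adjusted p = 0.00183; without the library 1.28 ± 0.053), at 446, 450 and 425 CPM. In TKO Sox2 stood at 255, 244 and 271 CPM and did not pass (0.34 ± 0.15, adjusted p = 0.118), but did without the library (0.51 ± 0.045, adjusted p = 2.8e-09). Pou5f1 was likewise past the threshold in QKO (0.67 ± 0.17, adjusted p = 0.0231) and in TKO without the library (0.61 ± 0.041, adjusted p = 3.73e-11) or in the line family fit with it (0.45, adjusted p = 0.00205), and did not pass in TKO in its own fit with it (0.40 ± 0.17, adjusted p = 0.109).

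Sall1 was higher in both mutant EpiLCs, at 130.5, 132 and 129.5 CPM in TKO and 132, 126 and 138 in QKO beside 40.8, 76.5 and 80.8 in PclWT (0.95 ± 0.24 and 0.99 ± 0.25, and 0.72 ± 0.050 and 0.72 ± 0.052 without PclWT replicate 1). Zfp281 was higher in both (0.45 ± 0.14, adjusted p = 0.0474 in TKO and 0.66 ± 0.15, adjusted p = 0.0151 in QKO), but the TKO call was lost with no count filter (0.0577) and with the replicate block (0.0874). Sall4 passed in QKO (0.35 ± 0.10, adjusted p = 0.038), lost with no count filter (0.14) and with the replicate block (0.109), and did not pass in TKO with PclWT replicate 1 (0.085 ± 0.098, adjusted p = 0.537) or without it (0.10 ± 0.046, adjusted p = 0.0611). Sall3 was higher in QKO (0.73 ± 0.17, adjusted p = 0.0173) and did not pass in TKO (-0.45 ± 0.19, adjusted p = 0.112), where it was lower without PclWT replicate 1 (-0.59 ± 0.15, adjusted p = 0.00221). The primitive endoderm list summed to 38.9 to 69.5 CPM in PclWT EpiLCs, 224 to 252 in TKO (7 of 7 tested genes higher) and 149 to 153 in QKO (5 of 6 higher), with no gene at 0. The neuroectoderm list summed to 34.5 to 48.4, 142 to 152 (3 of 5 higher) and 82.9 to 91.8 CPM (2 of 5 higher and 1 lower). The naive list summed to 254 to 319 CPM in PclWT EpiLCs, 391 to 415 in TKO (8 of 10 higher and 2 lower) and 759 to 767 in QKO (8 of 10 higher and 1 lower). The formative list summed to 1300 to 1470 CPM in PclWT EpiLCs and 2690 to 2850 in TKO EpiLCs (5 of 11 higher and 1 lower). In QKO EpiLCs it summed to 3120 to 3490 CPM (3 of 10 higher and 4 lower). In ESCs the 2-cell-like list summed to 5.53 to 6.35 CPM in PclWT and 13.9 to 15.2 in TKO (3 of 3 higher), and the mesendoderm list to 17.6 to 18.6 and 44.7 to 48.5 (2 of 4 higher and 1 lower, Cer1 at 0 in both groups). The naive list summed to 1990 to 2160 CPM in PclWT ESCs and 3880 to 4060 in TKO ESCs (8 of 10 higher and 1 lower). In QKO ESCs it summed to 3890 to 3920 CPM (9 of 10 higher and 1 lower). The part of these lists was not tested.

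QKO was also compared with TKO directly, as both lines lack Polycomb-like proteins and QKO lacks JARID2 as well. In ESCs 3 of 8 genes were higher in QKO and 2 lower, beside 19.5% and 22.5% of all genes, and in EpiLCs 5 were higher and 2 lower, beside 23.3% and 22.1%. Sox2 was higher at both stages, 1.31-fold in ESCs (0.39 ± 0.043, adjusted p = 5.85e-07) and 1.69-fold in EpiLCs (0.76 ± 0.047, adjusted p = 1.11e-11). Sall2 was lower at both, 1.59-fold in ESCs and 2.38-fold in EpiLCs (-1.25 ± 0.057). In EpiLCs it stood at 73.2, 70.4 and 69.9 CPM in TKO and 30.7, 29.6 and 30.5 in QKO, with no overlap. Sall3 stood at 6.67, 5.57 and 6.67 CPM in TKO EpiLCs and 13.9, 14.2 and 14 in QKO EpiLCs, 2.2-fold higher (1.14 ± 0.13), while in ESCs it did not pass (0.025 ± 0.073, adjusted p = 0.817). Sall4 was 1.2-fold higher in ESCs and 1.16-fold in EpiLCs. Sall1 was 1.36-fold higher in ESCs and did not pass in EpiLCs (-0.0030 ± 0.048, adjusted p = 0.966). Pou5f1 was 1.12-fold lower in QKO ESCs, a call lost without TKO ESC replicate 2 (adjusted p = 0.0552), without QKO ESC replicate 1 (0.0591) and in the line family fit (0.449), and 1.17-fold higher in QKO EpiLCs. Utf1 was 1.11-fold lower and Zfp281 1.13-fold higher in QKO EpiLCs, and these and Pou5f1 missed the threshold there in the line family fit (adjusted p = 0.503, 0.202 and 0.131). In ESCs Utf1 (-0.13 ± 0.052, adjusted p = 0.0514) passed without TKO ESC replicate 3 (-0.17, adjusted p = 0.011) and with the sum of strand columns (0.0499), and Zfp281 (-0.029 ± 0.046, adjusted p = 0.653) did not pass. In TKO and QKO EpiLCs the naive list summed to 391 to 415 and 759 to 767 CPM (9 of 10 tested genes higher and 1 lower), the primitive endoderm list to 224 to 252 and 149 to 153 CPM (0 of 7 tested genes higher and 7 lower) and the 2-cell-like list to 13.4 to 16 and 4.07 to 6.16 CPM (0 of 3 tested genes higher and 3 lower), and their part was not tested.

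**Figure D3:**
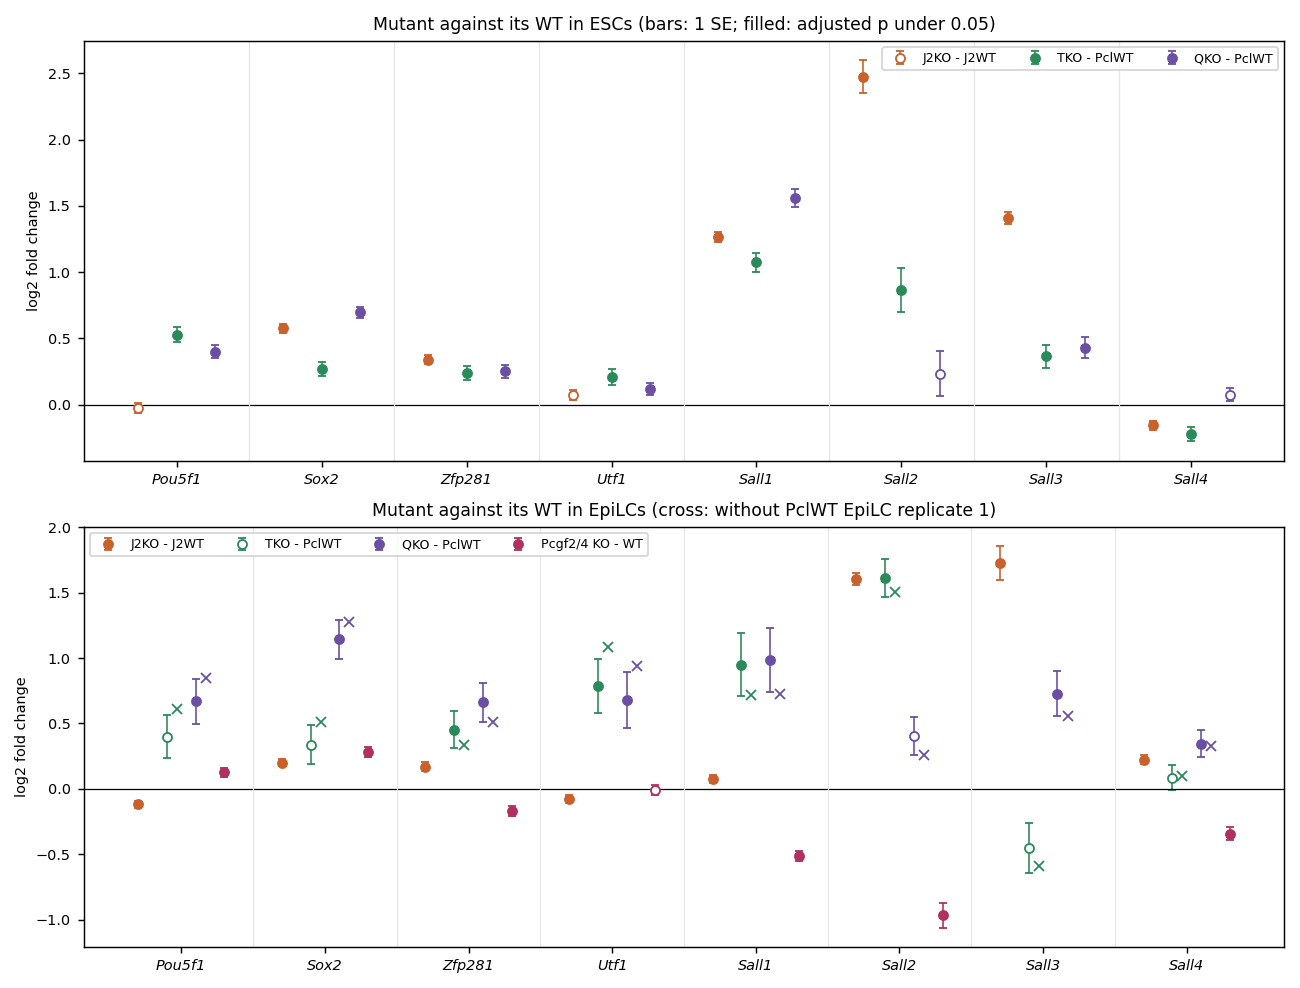
Log2 fold change of each gene in each mutant against its WT (vertical axis), in ESCs above and EpiLCs below, with bars of 1 SE, filled points for adjusted p under 0.05 and crosses for the fit without PclWT EpiLC replicate 1. In ESCs Sall1 lay at 1.26, 1.07 and 1.56 in J2KO, TKO and QKO, and in Pcgf2/4 KO EpiLCs it lay at -0.51.

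Loss of PCGF2 and PCGF4, subunits of canonical PRC1, was measured in EpiLCs only. Of the 7 genes tested, 2 were higher and 4 lower, beside 29.6% and 27.4% of all genes. The tested Sall genes were lower. Sall1 stood at 416, 438 and 421 CPM in WT and 284, 298 and 296 in Pcgf2/4 KO, 1.43-fold lower (-0.51 ± 0.037, adjusted p = 1.79e-15). Sall2 stood at 23.9, 22.7 and 23.5 and 10.7, 11.4 and 13.2, 1.95-fold lower (-0.97 ± 0.096), and Sall4 at 119.8, 112 and 118 and 91.3, 93.6 and 86, 1.27-fold lower. The genotypes did not overlap for any of these 3. Sall3 was below the count limit for testing, at 0.37, 0.684 and 0.581 CPM in WT and 0.851, 0.582 and 1.63 in Pcgf2/4 KO, and overlapped. Sox2 was 1.22-fold higher (369.7, 362 and 369 CPM in WT and 442, 456 and 419 in Pcgf2/4 KO) and Pou5f1 1.09-fold higher. Zfp281 was 1.12-fold lower. Utf1 stood at 776, 742 and 800.2 and 798, 762 and 711 CPM, which overlapped (-0.0064 ± 0.039, adjusted p = 0.903). The primitive endoderm list summed to 28.3 to 31.5 CPM in WT and 60.6 to 63.3 in Pcgf2/4 KO (4 of 4 tested genes higher), and the fibroblast or feeder list to 18.3 to 20.6 and 3.5 to 5.09 (3 of 3 lower, Col3a1, Twist2 and Lum at 0 in both groups). The naive list summed to 268 to 271 and 352 to 387 CPM (8 of 10 tested genes higher and 1 lower) in WT and Pcgf2/4 KO, the formative list to 4840 to 4860 and 3530 to 3630 CPM (3 of 11 tested genes higher and 6 lower) and the neuroectoderm list to 67 to 71.2 and 34.1 to 36 CPM (1 of 4 tested genes higher and 2 lower). The part of these lists was not tested.

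The make-up of the Sall family, as each gene's share of the summed RPKM of the 4 genes, differed between stages. Sall4 was the main member in ESCs, with 66.1% ± 0.699 of the sum (SD, n = 3) in J2WT, 85.5% ± 0.573 in PclWT, 73.6% ± 0.798 in TKO and 73.3% ± 0.439 in QKO. J2KO ESCs were nearly even between Sall4 (41% ± 0.392) and Sall1 (39.9% ± 0.497), with 17.3% ± 0.191 from Sall3. The shares use all exon bases. With unshared bases only, Sall4 stood at 55.3 RPKM in J2KO ESCs, beside 48.7 for Sall1. In EpiLCs Sall1 was the main member in J2WT (64.6% ± 0.949), J2KO (55.7% ± 0.537), WT (76% ± 1.1) and Pcgf2/4 KO (74.9% ± 0.576). Sall4 remained above Sall1 in EpiLCs of PclWT (64% ± 7.03), TKO (46.6% ± 1.82) and QKO (55.1% ± 0.92). In PclWT EpiLCs Sall1 made 18% in replicate 1 and 28.4% and 29.2% in replicates 2 and 3. Sall2 made 18% ± 0.763 in TKO EpiLCs and 15.8% ± 0.0458 in J2KO EpiLCs, its largest shares, and Sall3 did not exceed 2.6% ± 0.13 in any EpiLC group. The summed level was 84.9 ± 2.96 RPKM in J2WT ESCs and 103 ± 1.82 in J2WT EpiLCs, and 84.3 ± 5.81 and 48.9 ± 5.19 in those of PclWT. These shares were not tested, and the line family cannot be told apart from the library set.

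**Figure D4:**
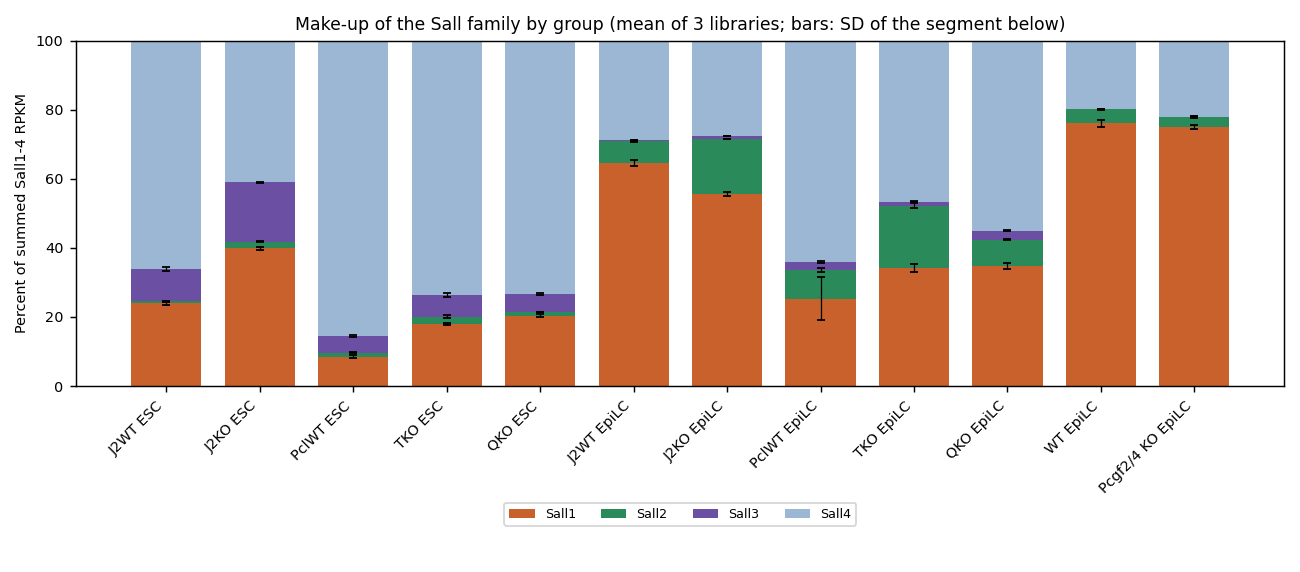
Share of each Sall gene in the summed RPKM of Sall1 to Sall4 (percent, mean of 3 libraries, bars of 1 SD of the segment below) by group. Sall4 made 85.5% in PclWT ESCs and Sall1 76% in WT EpiLCs.

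Over all 12 groups, the order of the levels differed between genes. Pou5f1 was highest in ESCs of TKO (852 ± 51 CPM), J2WT and J2KO, which overlapped as neighbours in the order, and lowest in PclWT EpiLCs (384 ± 82.9), which lay apart from TKO EpiLCs (521 ± 13), the next group. Of the 11 pairs of neighbours, 6 overlapped in their libraries for Pou5f1, 3 for Sox2, 5 for Utf1, 7 for Zfp281, 5 for Sall1, 4 for Sall2, 4 for Sall3 and 2 for Sall4. Sox2 was highest in J2KO ESCs (874 ± 6.84) and then in QKO ESCs (661 ± 7.54), which did not overlap, and lowest in TKO (257 ± 13.6) and PclWT EpiLCs (198 ± 33.8), which did not overlap either. For Utf1 the 7 EpiLC groups all lay above the 5 ESC groups. At the top, WT (773 ± 29.1) overlapped Pcgf2/4 KO (757 ± 43.6). Pcgf2/4 KO also overlapped J2WT EpiLCs (692 ± 19.4), which lay wholly below WT. Sall3 had the 5 ESC groups above all EpiLC groups, from 158 ± 2.58 CPM in J2KO ESCs to 30.5 ± 3.16 in PclWT ESCs, and then QKO EpiLCs at 14.1 ± 0.185. Sall4 also had the ESC groups on top, from 419 ± 7.93 in QKO, overlapping PclWT (399 ± 25), down to 277 ± 2.59 in J2KO. Zfp281 spanned 149.8 ± 26.2 CPM in PclWT EpiLCs to 277 ± 13 in J2KO EpiLCs. Sall2 was highest in J2KO (107 ± 3.17) and TKO EpiLCs (71.2 ± 1.75), and Sall1 in WT EpiLCs of the Pcgf2/4 KO set (425 ± 11.5), J2KO EpiLCs (365 ± 14.8) and J2WT EpiLCs (351 ± 4.26).

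Among the members, the group means of log2 CPM moved most alike for Sall3 and Sall4 (Pearson's r = 0.881 over 12 groups) and for Pou5f1 and Sox2 (0.842), and most opposite for Sall3 and Utf1 (-0.896) and Sall4 and Utf1 (-0.841). Of 12420 protein-coding genes, those with the pattern most like each member were these, by the same r. For Pou5f1 they were Cnpy4 (0.954), Sept1 (0.948) and Ing3 (0.947), for Sox2 Arl1 (0.959), Icam1 (0.949) and Rnf4 (0.944), and for Utf1 Mapk6 (0.988), Nrgn (0.98) and Epcam (0.98). For Zfp281 they were Ddx3x (0.954), Heatr1 (0.946) and Serp1 (0.936). For the Sall family they were Rheb (0.964), Ap3m1 (0.954) and 9930012K11Rik (0.95) beside Sall1, Ankrd17 (0.958), Spata13 (0.953) and Spryd7 (0.948) beside Sall2, Gna13 (0.976), Gm21028 (0.974) and Wbp1l (0.967) beside Sall3, and Hic2 (0.978), Rnd1 (0.975) and Sparc (0.965) beside Sall4. The 12 points share stage, line family and depth, so these values are descriptions.

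Genes of the network around OCT4 and SOX2 did not move as one from ESC to EpiLC in J2WT. Of 16 such genes, J2WT EpiLCs had 9 higher and 7 lower than ESCs, beside 40.0% and 42.3% of all genes (median log2 fold change 0.184, beside -0.0225 over all genes). Lefty1, an inhibitor of NODAL signalling, changed most among those that rose (3.95 ± 0.067), and Esrrb, an orphan nuclear receptor of naive cells, among those that fell (-3.86 ± 0.041). In J2KO ESCs 11 of 16 were higher and 1 lower (all genes, 36.7% and 34.1%), with Lefty1 (1.79 ± 0.088) changed most. In TKO ESCs 10 were higher and 0 lower (all genes, 33.9% and 32.9%), and in QKO ESCs 6 and 3 (all genes, 36.5% and 33.4%). In both, Tdgf1, a co-receptor for NODAL (1.32 ± 0.051 and 1.26 ± 0.042), and Lin28a, a regulator of let-7 (1.23 ± 0.055 and 0.93 ± 0.049), were changed most. In Pcgf2/4 KO EpiLCs 8 were higher and 5 lower (all genes, 29.6% and 27.4%), with Nanog (1.12 ± 0.044) and Esrrb (1.10 ± 0.047) changed most.

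Subunits of NuRD, the complex that SALL proteins recruit, changed by less than 2-fold in all comparisons of 2 groups but 1, the rise of Mta1 from ESC to EpiLC in QKO (1.09 ± 0.048). The shares of all genes just given hold for the counts of subunits and of SOX and POU genes in the same comparisons. Of 12 subunits, 6 were higher and 2 lower in J2WT EpiLCs, with Mbd2 (-0.99 ± 0.068) and Mta3 (0.84 ± 0.037) changed most. In J2KO ESCs 3 were higher and 6 lower, in TKO ESCs 6 and 3, in QKO ESCs 6 and 2, and in Pcgf2/4 KO EpiLCs 6 and 4. Of 15 other SOX and POU genes tested in J2WT, 9 rose and 5 fell from ESC to EpiLC, with Pou3f1, a formative POU factor (8.69 ± 0.067), and Sox11 (5.93 ± 0.091) changed most. In J2KO ESCs 13 of 16 were higher and 3 lower, with Pou2f3 lower (-3.03 ± 0.091) and Sox3 higher (2.67 ± 0.23). In TKO ESCs 10 of 15 were higher and 2 lower, and in QKO ESCs 6 of 14 and 5. In both, the neural factors Sox1 (5.46 ± 0.19 and 3.93 ± 0.23) and Pou4f2 (4.33 ± 0.21 and 3.16 ± 0.24) changed most. In Pcgf2/4 KO EpiLCs 4 of 13 were higher and 6 lower, and Sox1 was lower (-1.69 ± 0.096).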

How the data were processed

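Libraries were made from poly(A) RNA with a NEBNext kit. The authors aligned the reads with STAR (GRCm38) and deposited its table of gene counts for every sample, not normalized, of which the column that ignores strand was used. Rows that name no gene (23.22% to 30.24% of counts) were left out. Symbols, positions and exon lengths came from GENCODE vM21, which held 55141 of 55401 gene IDs. The 8 genes and the gene lists (OCT4 and SOX2 network, NuRD subunits, other SOX and POU genes, naive, formative, neuroectoderm, primitive endoderm, trophoblast, fibroblast or feeder, 2-cell-like, mesendoderm) were chosen with earlier results of these data known. Named genes are the members, the 3 genes most like each by Pearson's r over 12 group means of log2 CPM (prior count 2), the targeted genes, and, in a comparison whose list is described, its genes changed most.

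Each of 18 comparisons was fitted on its own libraries by edgeR's quasi-likelihood method (edgeR 4.0.16, R 4.3.3, TMM factors), keeping genes whose normalized counts averaged 15 or more, and p-values were adjusted by Benjamini-Hochberg over all genes tested. A gene passed at an adjusted p under 0.05. Standard errors were derived from the F statistic. Alternatives were DESeq2 1.42.0, RLE factors, no count filter, the sum of the strand columns, a block for the replicate number, a fit of the whole line family, unshared exon bases for RPKM, and each library left out in turn. The fits were also run on simulated counts drawn independently for each library, which do not test how a library that stands apart moves the calls. No libraries were identical. For PclWT EpiLCs against ESCs, the deviations of same-numbered libraries from their group means correlated over genes in each of 3 pairs. The values were 0.407, 0.202 and 0.174, above the limit of 0.1, which was met in no other comparison. Libraries of other numbers reached 0.219, and the labels do not state a pairing, so whether numbers pair libraries is unclear. The fits reported held no replicate block, there or elsewhere, and the block was run only as an alternative. Figures were drawn with matplotlib in Python. ChIP-seq and proteomic experiments were not analysed here.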

Additional observations from a re-analysis of the deposited data

Results flagged for a closer look

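For 16 of the gene and contrast pairs, the change from ESC to EpiLC differed between lines by the interaction test of edgeR, on the log2 scale as mutant or PclWT minus its comparator. Between J2KO and J2WT the differences were -1.21 ± 0.049 (adjusted p = 7.64e-19) for Sall1, -0.90 ± 0.14 (adjusted p = 3.39e-06) for Sall2, -0.40 ± 0.044 (adjusted p = 5.49e-09) for Sox2, 0.35 ± 0.047 (adjusted p = 1.87e-07) for Sall4, -0.20 ± 0.050 (adjusted p = 0.00141) for Zfp281, -0.18 ± 0.049 (adjusted p = 0.00326) for Utf1 and -0.12 ± 0.046 (adjusted p = 0.0321) for Pou5f1, and the last was lost with DESeq2, with RLE normalization, with the sum of strand columns and without any of 8 single libraries. Between PclWT and J2WT they were 2.55 ± 0.21 (adjusted p = 2.83e-06) for Sall3, -1.95 ± 0.23 (adjusted p = 5.1e-05) for Sall2, -1.57 ± 0.21 (adjusted p = 0.000136) for Utf1, -0.92 ± 0.28 (adjusted p = 0.02) for Sall1, -0.74 ± 0.16 (adjusted p = 0.00262) for Zfp281 and -0.32 ± 0.092 (adjusted p = 0.0155) for Sall4. Those of Sall1 and Sall4 were lost without PclWT ESC replicate 2 (adjusted p = 0.0576 and 0.0557). That of Sall4 was also lost with no count filter (adjusted p = 0.119). Without PclWT EpiLC replicate 1 these became 2.72 ± 0.19 for Sall3, -1.80 ± 0.19 for Sall2, -1.82 ± 0.059 for Utf1, -0.65 ± 0.088 for Sall1, -0.59 ± 0.066 for Zfp281 and -0.30 ± 0.069 for Sall4. Between TKO and PclWT they were 0.74 ± 0.23 (adjusted p = 0.0497) for Sall2 and -0.82 ± 0.21 (adjusted p = 0.0209) for Sall3, and 0.63 ± 0.18 and -0.96 ± 0.18 without that library, and at least 1 of them was lost without each of the other libraries but PclWT EpiLC replicate 2. Between QKO and PclWT the difference was 0.48 ± 0.15 (adjusted p = 0.0439) for Sox2, and 0.58 ± 0.067 without it, and it was lost without any 1 of the other 11 libraries.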

How the results depend on the processing

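Of 843 member fold changes recomputed with DESeq2, RLE normalization, no count filter, the sum of strand columns, the replicate block or all libraries of the line family, 795 kept their direction and side of the threshold, 23 lost a call, 23 gained one and 2 changed sign. Of 1050 with 1 library left out, 929 kept both, 88 lost a call, 21 gained one and 12 changed sign. The number of members passed kept within 1.5 times its value in these settings except as follows. In TKO against PclWT EpiLCs 4 (all genes, 15.9% higher and 17.6% lower) became 7 in the line family fit (all genes, 7064 of 12847). With 1 library left out it ranged from 1 to 7, beside 2069 of 12765 to 8530 of 12842 of all genes. In QKO against PclWT EpiLCs 7 ranged from 1 to 8 with 1 library left out, beside 2212 of 12812 to 8536 of 12860 of all genes. In QKO against TKO EpiLCs 7 (all genes, 23.3% higher and 22.1% lower) became 4 in the line family fit (all genes, 2947 of 12702). For the stage change in TKO minus PclWT 2 (all genes, 15.3%) became 4 in the line family fit (all genes, 2732 of 12799). With 1 library left out it was 0 to 6, beside 4543 of 12784 of all genes at 6. For the stage change in QKO minus PclWT 1 (all genes, 16.2%) became 2 with DESeq2, 2 with no count filter and 4 in the line family fit. Of all genes, 2268 of 12685, 2354 of 31534 and 2675 of 12704 passed there. The count was 0 with RLE normalization and with the sum of strand columns, beside 2021 of 12705 and 2046 of 13826 of all genes. With 1 library left out it was 0 to 6, beside 4697 of 12678 of all genes at 6. In each of these ranges from PclWT EpiLCs the highest value was without PclWT EpiLC replicate 1, and the cause of the other changes was not tested. With the replicate block the number passed in PclWT EpiLCs against ESCs was 7 in place of 6, in TKO against PclWT EpiLCs 3 in place of 4, in QKO against PclWT EpiLCs 6 in place of 7 and in QKO against PclWT ESCs 5 in place of 6, and the block changed no other call. Signs changed only for differences that did not pass in the fit reported: with 1 library left out the log2 fold change ranged from -0.068 to 0.0065 for Pou5f1 in J2KO against J2WT ESCs, from -0.022 to 0.10 for Sall3 and from -0.047 to 0.0097 for Zfp281 in QKO against TKO ESCs, from -0.033 to 0.026 for Sall1 in QKO against TKO EpiLCs, and from -0.043 to 0.035 for Utf1 in Pcgf2/4 KO against WT EpiLCs. For the stage change in TKO minus PclWT it ranged from -0.19 to 0.081 for Pou5f1, from -0.0049 to 0.24 for Sox2 and from -0.36 to 0.083 for Sall1. In the line family fit Zfp281 in QKO against TKO ESCs came to 0.010 and Sall1 in QKO against TKO EpiLCs to 0.0078. Exon bases not shared with another gene raised the RPKM of Pou5f1 and Sall4 and left the other 6 as they were. Sall3 was too low to be tested in the Pcgf2/4 KO set, where a library held as few as 4 counts.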
